A study of Mus musculus with 23 samples.

Results

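The genes described here encode the pore-forming subunits of the AMPA and kainate receptors, the fast excitatory glutamate receptors of the brain other than the NMDA receptors. They were taken from the hippocampal expression table by symbol, as the 4 AMPA receptor genes (Gria1, Gria2, Gria3 and Gria4) and the 5 kainate receptor genes (Grik1, Grik2, Grik3, Grik4 and Grik5). The rule itself uses no measured value, but the set was chosen with earlier results of these data known. All 9 were among the 19733 genes of the table and among the 15986 genes tested. The study fed male wild-type C57BL/6J mice, 6 weeks old when acquired, an AIN93M liquid diet with or without ethanol and asked whether urolithin A, a metabolite that gut bacteria make from ellagitannins, changes the effects of alcohol on the hippocampus. The Ctrl group (9 mice) received the control diet, the EtOH group (7 mice) the ethanol diet, and the EtOH-UA group (7 mice) the ethanol diet with urolithin A. All 3 groups were gavaged every day for 16 weeks with the carrier carboxymethylcellulose, in which urolithin A was dissolved for the EtOH-UA mice only, and behaviour was tested in the week before the tissue was taken. There was no group that received urolithin A on the control diet.

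AMPA receptors carry most of the fast excitatory current at hippocampal synapses and are assembled from 4 subunits, which in most receptors include the Gria2 product. That subunit makes the channel nearly impermeable to calcium once its transcript has been edited by the RNA deaminase Adarb1 at the Q/R site in the pore. Kainate receptors act on both sides of the synapse. The products of Grik1, Grik2 and Grik3, the low-affinity kainate subunits, form channels by themselves, whereas those of Grik4 and Grik5, the high-affinity subunits, need a low-affinity partner. In the hippocampus, Grik4 is known as a gene of CA3 pyramidal cells and their mossy fibre synapses, and Grik1 as a gene of interneurons.

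The stretch of coding sequence that ends just after the Q/R site is shown for the 9 genes, because it is where the subunits differ in how editing sets their permeability. Each sequence is 30 bases of the coding strand of GRCm38, written 5′ to 3′ and lying in 1 coding exon, and the capitals mark the codon of the Q/R site.
Gria1 (chr11:57243071-57243100, plus strand, exon 11 of 16): ggttctcgctgggggccttcatgCAGcaag
Gria2 (chr3:80706907-80706936, minus strand, exon 11 of 16): ggttttccttgggtgcctttatgCAGcaag
Gria3 (chrX:41610242-41610271, plus strand, exon 11 of 16): ggttttccttgggtgcttttatgCAGcaag
Gria4 (chr9:4464133-4464162, minus strand, exon 12 of 17): ggttttccctgggtgcctttatgCAAcaag
Grik1 (chr16:87940538-87940567, minus strand, exon 13 of 18): ggtttggcgttggagctctcatgCAGcaag
Grik2 (chr10:49244325-49244354, minus strand, exon 13 of 17): ggtttggagttggagctctcatgCAGcaag
Grik3 (chr4:125691184-125691213, plus strand, exon 12 of 16): ggtttggaatgggctccctgatgCAGcaag
Grik4 (chr9:42547619-42547648, minus strand, exon 16 of 21): ggtttccggttggaggcttcatgCAGcaag
Grik5 (chr7:25022493-25022522, minus strand, exon 15 of 20): ggttccccgtgggtggcttcatgCAGcagg
The genomic codon was CAG in 8 of the 9 genes and CAA in Gria4. Gria2, Grik1 and Grik2 are the members whose transcripts are known to be edited there. The genome is given here as the reference, and FPKM hold no base calls, so the edited share was not analysed here. Gria2 and Gria3 were identical at 29 of the 30 bases, as were Grik1 and Grik2, and the least alike pair was Grik3 and Grik5 with 19. Over the whole aligned coding sequence, identity was 70.4 to 73.1% between the AMPA genes, 72.1 to 72.9% among Grik1, Grik2 and Grik3, and 72.6% between Grik4 and Grik5. It was 60.7 to 65.1% between the low-affinity and the high-affinity kainate genes and 58.8 to 63.3% between an AMPA and a kainate gene. In the whole transcript used for each gene, untranslated parts included, no pair shared an identical run longer than 46 bases. That run was found in Grik2 and Grik3.

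Expression was measured as FPKM, the number of sequenced fragments scaled to transcript length and to library size. Genes and mice are compared on that scale below, but the scaling did not make the libraries alike. Summed FPKM ran from 330456 to 361354 in the Ctrl group, from 327896 to 366930 in the EtOH group and from 333801 to 404609 in the EtOH-UA group. The highest sums belonged to 2 EtOH-UA mice, at 404609 and 379518, followed by 1 EtOH mouse at 366930. Each library was also given a length slope, the slope across 15459 genes of log2(FPKM + 0.1) on the log2 length of the longest annotated transcript, and these 3 libraries had the lowest slopes of all 23, at 0.0670, 0.169 and 0.184, against 0.215 to 0.344 in the others. Several results that rest on them are also given without some of them. Neuronal markers were present in all mice, with Snap25 at 1102 FPKM on average and Slc17a7, the vesicular glutamate transporter, at 429, and the summed FPKM of the 5 pan-neuronal markers ran from 2062 to 2474. Means were 938 for Mbp of oligodendrocytes, 170 and 111 for Slc1a3 and Gfap of astrocytes, 21.1 and 15.6 for Csf1r and P2ry12 of microglia, and 22.4 and 15.0 for Slco1a4 and Cldn5 of endothelial cells. The thalamic markers Calb2 and Prkcd averaged 25.1 and 8.27 FPKM. Choroid plexus markers were uneven: the summed FPKM of the 6 genes on that list, led by Ttr (mean 1560) and Enpp2 (mean 213), ran from 39.9 to 3347 in the Ctrl group, from 129 to 6576 in the EtOH group and from 48.9 to 8483 in the EtOH-UA group.

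The AMPA receptor genes were led by Gria1 and Gria2. Gria1, whose product is inserted at synapses during potentiation, ran from 182.04 through a median of 210.43 to 241.24 FPKM in the Ctrl group, from 199.75 through 217.78 to 234.12 in the EtOH group, and from 188.83 through 218.70 to 248.37 in the EtOH-UA group. Gria2, the calcium-limiting subunit, ran from 144.44 through 173.60 to 211.72 FPKM in the Ctrl group, from 146.95 through 192.55 to 206.68 in the EtOH group, and from 121.01 through 178.32 to 196.65 in the EtOH-UA group. The 3 groups overlapped for both genes, and the 2 lowest Gria2 values of all mice, 121.01 and 137.89, were those of the 2 EtOH-UA mice with the highest summed FPKM. Gria3, a partner of Gria2 in most of the remaining receptors, ran from 57.84 through 60.07 to 69.08 FPKM in the Ctrl group, from 51.12 through 63.86 to 67.70 in the EtOH group, and from 41.17 through 61.55 to 68.52 in the EtOH-UA group. Gria4, a subunit typical of interneurons and of early development, ran from 17.23 through 21.98 to 25.80 FPKM in the Ctrl group, from 15.39 through 22.00 to 27.93 in the EtOH group, and from 16.58 through 20.75 to 23.29 in the EtOH-UA group. Both genes overlapped between all groups, and the lowest Gria3 value, 41.17, was again that of the EtOH-UA mouse with the highest summed FPKM.

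Among the kainate receptor genes, the high-affinity subunit Grik5 was by far the most abundant. Its values ran from 51.73 through 55.61 to 59.99 FPKM in the Ctrl group, from 49.72 through 56.76 to 61.38 in the EtOH group, and from 48.86 through 54.60 to 58.72 in the EtOH-UA group. It was also the steadiest of the 9 genes, with a coefficient of variation of 6.17% between mice of a group. Grik4, the other high-affinity subunit, ran from 14.31 through 17.81 to 22.35 FPKM in the Ctrl group, from 15.28 through 16.99 to 21.60 in the EtOH group, and from 13.88 through 17.68 to 20.82 in the EtOH-UA group. The low-affinity subunit Grik2, the principal channel-forming kainate subunit of pyramidal and granule cells, ran from 15.05 through 16.95 to 18.82 FPKM in the Ctrl group, from 13.72 through 18.00 to 19.28 in the EtOH group, and from 13.45 through 17.40 to 18.14 in the EtOH-UA group. The ranges of the 3 groups overlapped for each of these genes. Grik3, a low-affinity subunit with a presynaptic role at mossy fibres, ran from 5.88 through 7.81 to 10.34 FPKM in the Ctrl group, from 5.82 through 8.28 to 9.87 in the EtOH group, and from 3.94 through 7.39 to 8.87 in the EtOH-UA group. Grik1, the low-affinity subunit of interneurons, ran from 3.42 through 5.17 to 5.42 FPKM in the Ctrl group, from 3.58 through 4.90 to 5.38 in the EtOH group, and from 3.09 through 4.17 to 5.80 in the EtOH-UA group. These 2 were the most variable of the 9 genes, with coefficients of variation of 20.2% for Grik3 and 16.6% for Grik1, and again no group stood apart.

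**Figure D1:**
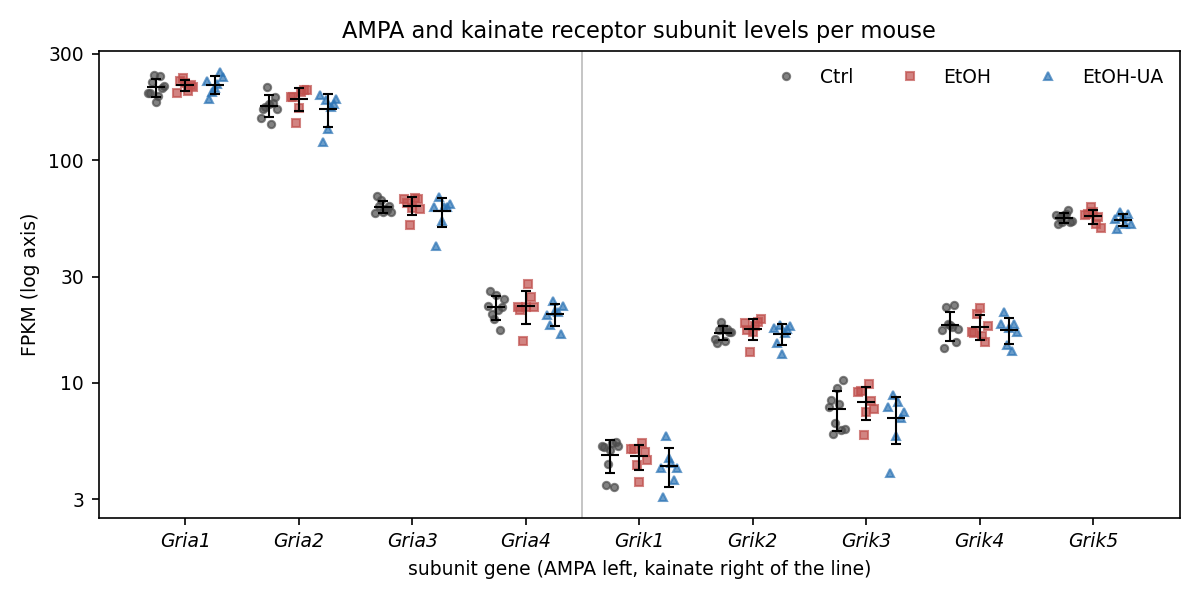
FPKM of each subunit gene in each mouse on a log axis, with Ctrl as circles (9 mice), EtOH as squares (7 mice) and EtOH-UA as triangles (7 mice), and black bars for the mean ± SD of a group. The genes span from 4.58 FPKM on average for Grik1 to 215 for Gria1, and within each gene the 3 groups overlap.

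Averaged over the 23 mice, the order of levels was Gria1 (215 FPKM), Gria2 (177), Gria3 (61.0), Grik5 (55.1), Gria4 (21.5), Grik4 (17.8), Grik2 (17.0), Grik3 (7.61) and Grik1 (4.58). The steps that separated every mouse were those from Gria2 to Gria3, from Grik5 to Gria4 and from Grik2 to Grik3, where the ranges over mice did not overlap and the median ratios within a mouse were 2.89, 2.60 and 2.28. Gria1 exceeded Gria2 in 23 of 23 mice although their ranges overlapped, with a median ratio of 1.25. In the mouse where they were closest, of the EtOH group, the levels were nearly equal, at 203.08 FPKM for Gria1 and 202.79 for Gria2. The highest ratio, 1.59, was that of the EtOH mouse with the highest summed FPKM. Grik3 exceeded Grik1 in 23 of 23, with a ratio from 1.19 to 2.08. Gria3 exceeded Grik5 in 19 of 23 mice and Gria4 exceeded Grik4 in 18 of 23. Grik4 and Grik2 could not be ordered: Grik4 was the higher in 12 of 23 mice, with a median ratio of 1.03.

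Shares within a family, which do not depend on how a library is scaled, were close in the 3 groups. They were not free of the length slope. After group means were subtracted, the log2 ratio of Gria1 to Gria2 had r = -0.78 with the slope (rho = -0.69) over 23 mice. The 3 libraries of lowest slope had the lowest Gria2 shares of all mice, from 32.6 to 32.8%, and they are kept in the values below. Of the summed FPKM of the 4 AMPA genes, Gria1 held 45.0 ± 2.20% in the Ctrl group (SD, n = 9), 44.4 ± 4.07% in the EtOH group (n = 7) and 47.0 ± 3.18% in the EtOH-UA group (n = 7). Gria2 held 37.1 ± 2.04%, 38.4 ± 3.01% and 36.0 ± 2.60% in the same order. The remainder was Gria3, at 13.1 ± 0.927%, 12.8 ± 0.827% and 12.6 ± 0.949%, and Gria4, at 4.69 ± 0.784%, 4.50 ± 0.637% and 4.40 ± 0.610%. The group means of each AMPA gene's share thus differed by less than 1 SD of the groups, and no test was run on shares. Grik5 held 53.9 ± 1.17%, 53.6 ± 2.60% and 54.5 ± 1.55% of the summed FPKM of the 5 kainate genes in Ctrl, EtOH and EtOH-UA mice. Grik4 and Grik2 each held between 16.4 and 17.6% on average in every group. Grik3 held 7.48 ± 1.62%, 7.88 ± 1.37% and 7.00 ± 1.50%, and Grik1 4.65 ± 0.877%, 4.50 ± 0.644% and 4.29 ± 0.726%. The AMPA genes together ran from 420 to 538 FPKM in the Ctrl group, from 448 to 516 in the EtOH group and from 369 to 509 in the EtOH-UA group, and the kainate genes together from 94.6 to 109, from 99.2 to 108 and from 91.7 to 106. The AMPA sum was 4.60, 4.71 and 4.69 times the kainate sum on average.

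The first comparison asked whether the ethanol diet changed the subunit genes. No member passed the test between the EtOH and Ctrl groups. Grik3 had the largest difference, at 8.19 FPKM on average against 7.65, a log2 fold change of 0.11 (SE 0.15, 95% interval -0.20 to 0.41). Gria2 had the smallest p of the members, at 188 against 175 FPKM, a log2 fold change of 0.10 (SE 0.10, 95% interval -0.10 to 0.30, exact permutation p = 0.243, adjusted limma p = 0.999), and 5 of the 7 EtOH mice were above the Ctrl median. Point estimates were above 0 for 7 members and below 0 for 2 (Grik1 and Grik4, both at -0.01), where 48.6% of all genes tested were above 0. The median log2 fold change of the 9 members was 0.02, against -0.00295 for all genes tested. Without the EtOH mouse of highest summed FPKM the median was 0.06, with 7 members above 0 and 2 below. Gria2 was then at 0.16, Grik3 at 0.18 and Grik2 at 0.11, and the smallest unadjusted limma p of the members was 0.0858. At an unadjusted p under 0.05, 0 of 9 members were called, where 3.05% of all genes (487) were, and by the adjusted p of limma 0% of all genes (none) were. An exact permutation test over all 11440 splits of the mice called 566 genes at an unadjusted p under 0.05 and again none after adjustment. No member had groups that did not overlap, where 0.00626% of all genes (1 gene, Xrra1, named after its values were seen) did. The narrowest interval was that of Grik5 (-0.08 to 0.11 for a log2 fold change of 0.02), and the widest was that of Grik3. Differences inside a member's interval remain compatible with its values in these mice.

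The second comparison asked what urolithin A changed in mice on the ethanol diet. No member passed the test between the EtOH-UA and EtOH groups either. The largest differences were those of Grik3, at 6.98 FPKM on average against 8.19, and of Gria2, at 169 against 188. The log2 fold change of Grik3 was -0.25 (SE 0.16, 95% interval -0.57 to 0.07, exact permutation p = 0.182, adjusted limma p = 0.900), and that of Gria2 was -0.17 (SE 0.10, 95% interval -0.38 to 0.05, exact permutation p = 0.193, adjusted limma p = 0.900). For each of these genes, 6 of the 7 EtOH-UA mice were below the EtOH median. Point estimates were below 0 for 8 members and above 0 for Gria1 alone (0.01), where 51.2% of all genes tested were above 0. Upper-quartile scaling and quantile normalization put Gria1 below 0 as well, at -0.01 and -0.07. The median of the 9 was -0.10, against 0.00331 for all genes. At an unadjusted p under 0.05, 0 of 9 members were called by limma, where 3.27% of all genes (523) were. After adjustment limma called 0% of all genes, and the exact permutation test over all 3432 splits, which called 495 genes unadjusted, also called none. Members with groups that did not overlap numbered 0, where 0.0250% of all genes did (4 genes, Serpina3c, Fam118b, Mterf2 and Mtmr3, named after their values were seen).

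The libraries that stood apart weighed on this comparison. The EtOH-UA mouse with the highest summed FPKM had the lowest value of its group in 6 of the 9 members and the highest in 1. The EtOH-UA mouse with the next highest sum was lowest in only 1. Another EtOH-UA mouse, with a length slope of 0.312, was highest in 6. The EtOH mouse with the highest summed FPKM had the lowest value of its group in 5 of the 9 and the highest in 2. Such counts over all genes are not given. Without the 2 EtOH-UA mice of highest summed FPKM, which left 5, the log2 fold changes were -0.02 for Gria2, 0.02 for Gria3, 0.01 for Grik2 and -0.05 for Grik3, the median of the 9 members moved from -0.10 to -0.03, and 6 members were below 0. Without the EtOH mouse of highest summed FPKM, by contrast, Gria2 (-0.22), Gria4 (-0.19) and Grik3 (-0.33) came under an unadjusted limma p of 0.05. Their adjusted limma p was 0.574. The share of all genes under 0.05 in that fit is not given, so the number of members under it cannot be weighed. With the length slope as a covariate and all mice kept, the log2 fold changes were -0.04 for Gria2, -0.01 for Gria3, 0.00 for Grik2 and -0.12 for Grik3.

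The third comparison set the EtOH-UA group against the Ctrl group, and here too no member passed the test. It shares its mice with the other comparisons and is given for its own values. Grik1 had the largest difference on the log2 scale, at 4.26 FPKM on average against 4.74, a log2 fold change of -0.15 (SE 0.12, 95% interval -0.40 to 0.09, exact permutation p = 0.269, adjusted limma p = 0.999), and 6 of the 7 EtOH-UA mice were below the Ctrl median. Grik3 was at -0.14, Gria4 at -0.10, Gria3 at -0.08, Gria2 and Grik4 at -0.06, Grik5 at -0.03 and Grik2 at -0.02, whereas Gria1 was at 0.04. Thus 8 members were below 0 and 1 above, where 51.2% of all genes were above 0. The median of the 9 was -0.06, against 0.00238 for all genes, and it became 0.04, with 5 members above 0, without the 2 EtOH-UA mice of highest summed FPKM. Of all genes, 3.08% (492) had an unadjusted limma p under 0.05, and 0 of 9 members did. Adjusted p-values called 0% of all genes by limma and none by the exact permutation test, which called 476 unadjusted. Groups that did not overlap were found for 0.0125% of all genes (Xrra1 and Nectin4, named after their values were seen) and for no member.

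**Figure D2:**
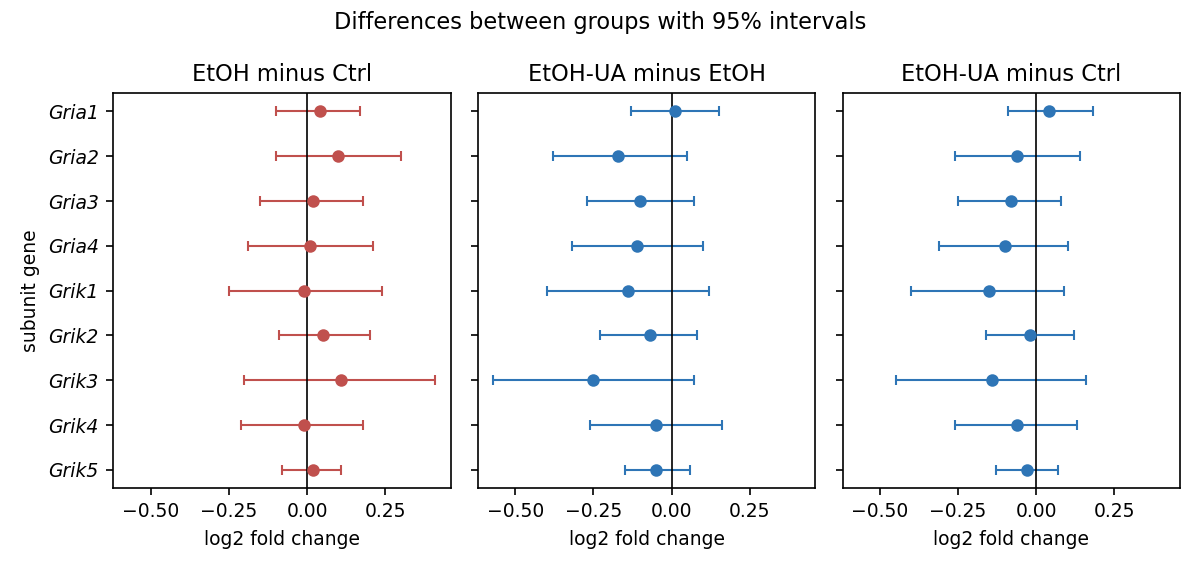
Log2 fold change of each subunit gene (x axis, no unit) with its 95% interval as a horizontal bar, in the 3 comparisons, from the limma fit over all 23 mice. Every interval includes 0, and the point estimates lie between -0.25 (Grik3, EtOH-UA minus EtOH) and 0.11 (Grik3, EtOH minus Ctrl).

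The genes of the proteins that assemble, anchor and modify the receptors did not pass the adjusted test in any comparison. Of the 15 AMPA receptor auxiliary subunits, led by Cnih2 (mean 175 FPKM) and Prrt1 (68.9), 0 had an unadjusted p under 0.05 in the 3 comparisons, and their median log2 fold changes were 0.00, -0.00 and -0.01 for EtOH against Ctrl, EtOH-UA against EtOH and EtOH-UA against Ctrl. Among the 5 kainate receptor auxiliary and recruiting genes, led by C1ql3 (63.7) and Neto1 (38.7), 0 passed as well, with medians of 0.01, -0.04 and -0.03. The 9 other ionotropic receptor genes, the NMDA and delta subunits led by Grin1 (109) and Grin2b (33.8), also had 0, with medians of -0.01, -0.05 and -0.06.

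Single genes of the other 3 lists had an unadjusted p under 0.05, a level that 3.05 to 3.27% of all genes reached. Of the 14 genes for AMPA receptor assembly and synaptic organization, led by Olfm1 (528 FPKM) and Abhd12 (130), the one gene was Abhd6, a hydrolase that also limits the surface delivery of AMPA receptors. Abhd6 stood at 24.3 ± 1.32 FPKM in the Ctrl group (SD, n = 9), 24.4 ± 1.17 in the EtOH group (n = 7) and 26.5 ± 1.62 in the EtOH-UA group (n = 7). All 7 EtOH-UA mice were above the median of either other group, and the log2 fold change was 0.12 both against EtOH (exact permutation p = 0.0117, adjusted limma p = 0.900) and against Ctrl (exact permutation p = 0.00909, adjusted limma p = 0.999). Of the 20 scaffold and trafficking genes, led by Nsf (324) and Dlg4 (201), Dlg3, a scaffold of the postsynaptic density, was 54.3 ± 2.12 FPKM in the EtOH-UA group and 51.0 ± 2.02 in the EtOH group (log2 fold change 0.09, exact permutation p = 0.0134, adjusted limma p = 0.900). Grip1, which binds the tails of Gria2 and Gria3 products, was 6.31 ± 0.686 in the EtOH-UA group and 6.82 ± 0.311 in the Ctrl group (log2 fold change -0.11, exact permutation p = 0.0626, unadjusted limma p = 0.0498). Of the 15 kinases, phosphatases and editing enzymes, led by Camk2a (851) and Ppp3r1 (452), Ppp3r1, the regulatory subunit of calcineurin, was 475 ± 40.1 FPKM in the EtOH-UA group and 423 ± 16.2 in the EtOH group (log2 fold change 0.16, exact permutation p = 0.0128, adjusted limma p = 0.900).

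The members did vary between mice of the same group, and they did so in patterns. These are described by correlations of log2(FPKM + 0.1) after the group means had been subtracted, over 23 mice. No p is given, since the libraries differ in length slope, and how far they differ in depth or dissection is not known. Where the estimate from the steps of low FPKM values holds, counting error was 0.564 to 5.91% of a member's level, below its coefficient of variation between mice of a group in each case (5.91% against 16.6% for Grik1). Fewer cells of a type and less RNA per cell cannot be told apart in bulk tissue. Gria2 and Grik2 varied together (r = 0.86, rho = 0.89), with r between 0.82 and 0.95 inside each group. Gria2 and Gria3 were correlated at r = 0.80 (rho = 0.69), and at 0.41, 0.85 and 0.93 inside the Ctrl, EtOH and EtOH-UA groups. Gria3 and Grik2 had r = 0.61 (rho = 0.56), with -0.04, 0.84 and 0.72 inside the same groups. In contrast, Grik4 ran opposite to Grik1 (r = -0.83, rho = -0.77) and to Grik3 (r = -0.73, rho = -0.70), whereas Grik1 and Grik3 ran together (r = 0.72, rho = 0.66). The Grik1 and Grik4 relation was -0.86 within the Ctrl group, -0.90 within the EtOH group and -0.76 within the EtOH-UA group, and -0.77 without the 2 mice farthest from the median of Grik1. Among the 12903 other genes that averaged 1 FPKM or more, Grik1 had the lowest r with Grik4.

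**Figure D3:**
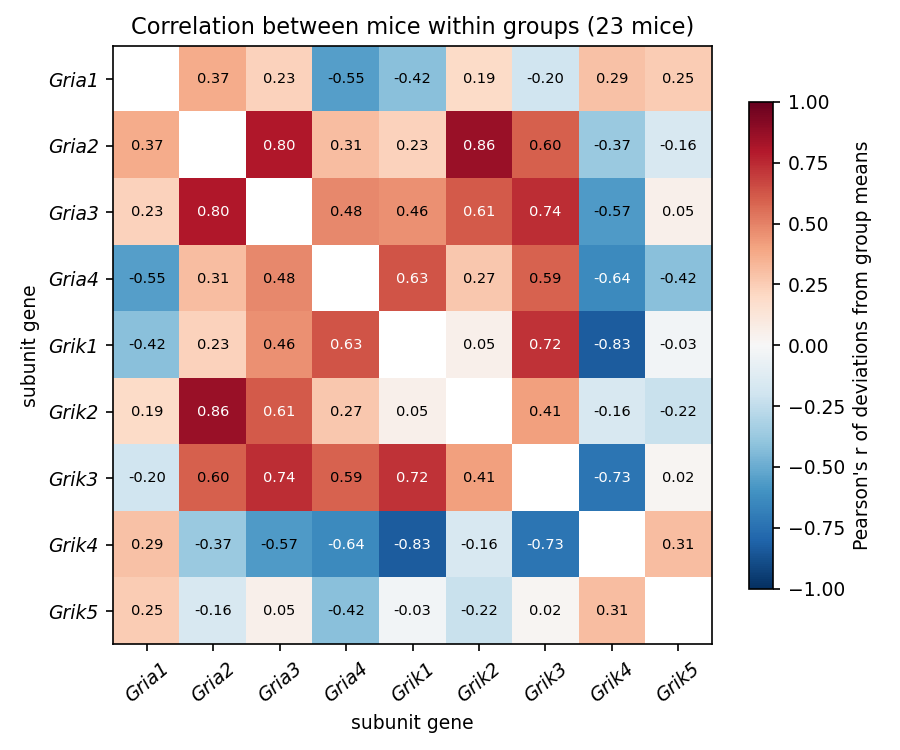
Pearson's r between each pair of the 9 subunit genes over 23 mice, after group means were subtracted, as colour and number. The block of Gria2, Gria3 and Grik2 is positive over all mice (0.61 to 0.86), although Gria3 and Grik2 are at -0.04 within the Ctrl group. Grik4 is negative with Grik1 (-0.83), Grik3 (-0.73), Gria4 (-0.64) and Gria3 (-0.57).

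The first pattern moved with the length slope of the libraries. Gria2 followed the slope at r = 0.94 (rho = 0.89), Gria3 at 0.88 (rho = 0.74) and Grik2 at 0.81 (rho = 0.83). Without the 2 mice farthest from the median slope, r was 0.90 for Gria2, 0.70 for Gria3 and 0.84 for Grik2. In Ctrl mice, EtOH mice and EtOH-UA mice taken separately, the r of Gria2 with the slope was 0.84, 0.99 and 0.97. That of Gria3 was 0.52, 0.87 and 0.97. The longest annotated transcripts of Gria2 and Grik2, 10.4 and 9.43 kb, were also the longest of the 9 members, whereas that of Gria3 was 5.21 kb. Grik3, at 8.97 kb, had an r of 0.65 with the slope, which was 0.30 without the 2 mice farthest from the median slope and 0.42 without the 1 EtOH-UA mouse of highest summed FPKM. Gria1 (5.55 kb) had 0.33 and Grik5 (4.06 kb) -0.08. After a linear fit on the slope was removed, Gria2 and Grik2 were correlated at 0.50 and Gria2 and Gria3 at -0.15.

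**Figure D4:**
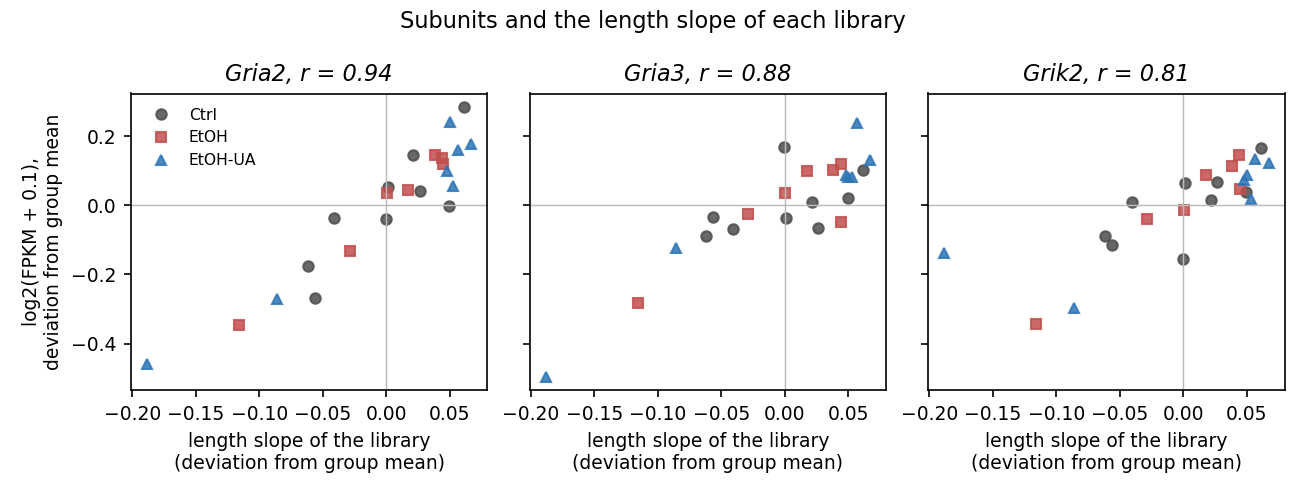
Deviation of each mouse from its group mean in log2(FPKM + 0.1) of Gria2, Gria3 and Grik2, against the deviation of its library's length slope, with 1 point per mouse and the groups as colours and shapes. The 2 EtOH-UA mice and the 1 EtOH mouse of lowest slope lie at the lower left, and r is 0.94, 0.88 and 0.81.

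The second pattern moved with markers of the hippocampal fields and was left as it was when the slope was removed (Grik1 and Grik4 at -0.83, Grik1 and Grik3 at 0.78, Grik3 and Grik4 at -0.69). A score was formed for each field as the mean deviation of its markers. With the score of the 5 CA3 pyramidal cell markers, of which Bok (41.4 FPKM on average) and Homer3 (20.2) were the most abundant, Grik4 had r = 0.81 (rho = 0.80), Grik1 r = -0.91 (rho = -0.82) and Grik3 r = -0.86 (rho = -0.82). Each of the 5 markers was positive with Grik4 (0.51 to 0.82) and negative with Grik1 (-0.82 to -0.63) and with Grik3 (-0.90 to -0.44). Taken group by group (Ctrl, then EtOH, then EtOH-UA), the r of Grik1 with the CA3 score was -0.94, -0.91 and -0.90 and that of Grik4 was 0.80, 0.90 and 0.79. Without the 2 mice farthest from the median score, r was -0.88 for Grik1, -0.77 for Grik3 and 0.77 for Grik4. Summed over the 5 markers, CA3 signal ran from 72.7 to 112 FPKM in the Ctrl group, from 63.1 to 110 in the EtOH group and from 66.4 to 171 in the EtOH-UA group, and 0 of the 5 passed an unadjusted p under 0.05 in any comparison.

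**Figure D5:**
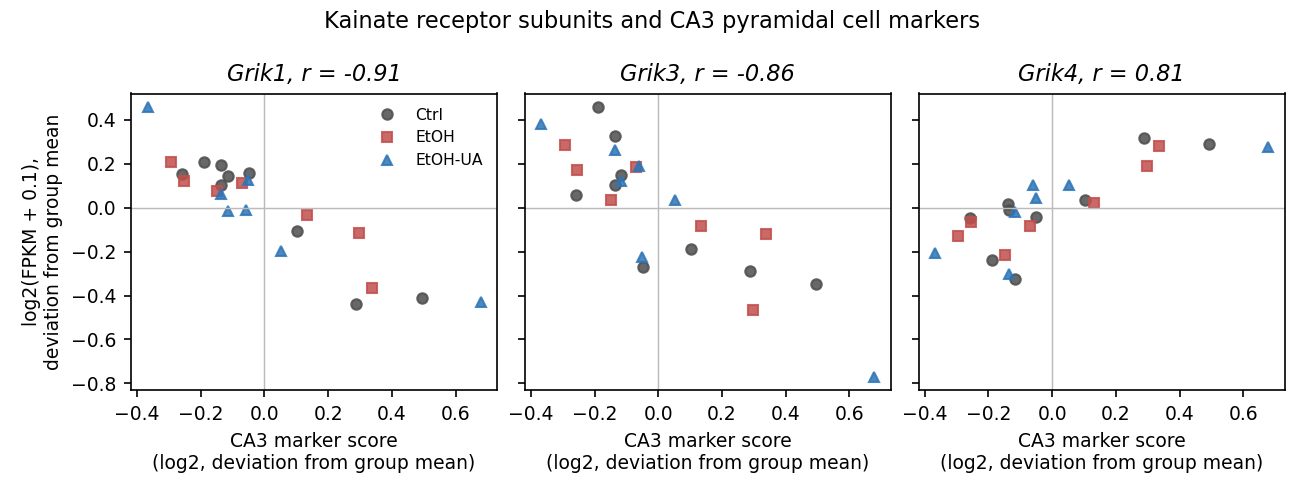
Deviation of each mouse from its group mean in log2(FPKM + 0.1) of Grik1, Grik3 and Grik4, against the mean deviation of the 5 CA3 pyramidal cell markers, with 1 point per mouse and the groups as colours and shapes. Mice with more CA3 marker RNA had less Grik1 and Grik3 (r = -0.91 and -0.86) and more Grik4 (r = 0.81) in each of the 3 groups.

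Grik1 was also correlated with the score of the 7 interneuron markers, led by Sst (186 FPKM) and Gad1 (102), at r = 0.77 (rho = 0.85), and all 7 were positive with it (0.48 to 0.67). The r of Grik4 with the same score was -0.61. The interneuron score was itself correlated with the CA3 score at -0.75 (rho = -0.72), so the relations with these 2 scores are not separate. Gria4 had r = 0.48 with the interneuron score, -0.63 with the CA3 score and -0.61 with the score of the dentate granule cell markers, led by Calb1 (45.3) and C1ql2 (31.6). With the dentate score, Grik1 had r = -0.61 (rho = -0.75), Grik3 -0.39 (rho = -0.57) and Grik4 0.57 (rho = 0.62). The dentate score was correlated with the interneuron score at -0.73 and with the CA3 score at 0.54. Gria1 had r = 0.53 (rho = 0.68) with the dentate score, and 0.65, 0.85 and 0.26 within the Ctrl, EtOH and EtOH-UA groups. Its highest r with any of the marker scores was that with CA2 pyramidal cells, at 0.61 (rho = 0.57). For Grik5 the highest r with any of the 13 marker scores was that with oligodendrocyte precursors, led by Pdgfra (11.5) and Olig2 (9.73), at 0.57 (rho = 0.55). The CA1 markers, led by Mpped1 (63.6) and Wfs1 (30.1), had r = 0.66 with Grik1 (rho = 0.35), 0.68 with Grik3 (rho = 0.53) and -0.60 with Grik4 (rho = -0.49). Without the EtOH-UA mouse of highest summed FPKM these were 0.62, 0.43 and -0.61, and without the 2 mice farthest from the median CA1 score 0.49, 0.36 and -0.50. The CA1 and CA3 scores were themselves correlated at -0.80 (rho = -0.49), and at -0.58 without those 2 mice. The part of cell composition in the members' values was not tested. Of the marker lists, single genes had an unadjusted limma p under 0.05 between groups: Wfs1 (log2 fold change 0.32), Gfap (0.23) and the thalamic Tcf7l2 (0.27) in EtOH-UA against Ctrl and the choroid plexus gene Clic6 (1.98) in EtOH against Ctrl. The adjusted limma p was 0.999 for each.

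Across the 12903 genes, the 2 with the highest r to each member, over 23 mice and after group means were subtracted, were as follows. Gria1 was most like Iqgap2 (r = 0.93, rho = 0.91) and Wasf1 (0.87, rho = 0.85). Gria2 was most like Aff4 (r = 0.97, rho = 0.97) and Xrn1 (0.96, rho = 0.95). Gria3 was most like St6gal2 (r = 0.96, rho = 0.89) and Fam171b (0.94, rho = 0.90). No member was among the 2 genes most like another member. For Gria4 the 2 genes were Hs6st2 (r = 0.91, rho = 0.85) and Necab1 (0.90, rho = 0.83). For Grik1 they were Garnl3 (r = 0.94, rho = 0.89) and Cntn4 (0.88, rho = 0.81), for Grik2 Thsd7a (0.94, rho = 0.87) and Mga (0.92, rho = 0.89), and for Grik3 Map3k9 (0.92, rho = 0.88) and Cit (0.91, rho = 0.92). The high-affinity genes had the lowest values, with Slco2a1 (0.86, rho = 0.86) and Adam11 (0.85, rho = 0.82) for Grik4 and Cbx6 (0.88, rho = 0.85) and Rexo1 (0.85, rho = 0.82) for Grik5. The closest pair of members was Gria2 and Grik2, with Gria2 at rank 88 of the genes most like Grik2 and Grik2 at rank 349 of those most like Gria2.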

How the data were processed

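The authors deposited 1 table of FPKM to 2 decimals for 23 hippocampi. By the study's methods, poly(A)+ RNA was sequenced (the sample labels name total RNA), and reads were aligned to mm10 with Bowtie2 and quantified with RSEM, while the submitters' processing notes name HISAT2 2.1.0, Bowtie2 2.2.5 and RSEM 1.2.8. The count test of the methods could not be used on FPKM. Columns were matched to groups by name, and each is taken as 1 mouse. No 2 columns were identical.

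The 15986 genes that averaged 0.1 FPKM or more were fitted on log2(FPKM + 0.1) with limma 3.58.1 in R 4.3.3, as 1 model of 3 groups with an intensity trend. P-values were adjusted over all genes tested by the Benjamini-Hochberg method, and fold changes are on that scale. The difference between group means was also put to an exact permutation test, two-sided, over every split of the mice of 2 groups. Both were tested on simulated data. The alternatives were other pseudocounts (0.01 and 1) and filters, 2-group fits, 2 scalings, robust and weighted fits, 2 covariates, and leaving out mice.

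The genes named are the 9 members, the 2 genes most like each, up to 3 genes of each list per comparison with the smallest unadjusted p under 0.05, and the 2 most abundant markers of each cell type, of which 1 is not reported here. The 2 most abundant of each other list and the genes whose groups did not overlap were named in addition, after their values were seen. The members and lists were chosen with earlier results of these data known. Depth is not given in the table. The low values of 23 of 891 genes with 1 annotated transcript fell on even steps (within 0.0055 FPKM), with a median of 17.1 fragments per kilobase at 1 FPKM (quartiles 16.7 and 17.3), and counting error was computed from that median. It rests on few genes and covers counting error only. Transcript lengths, coordinates and the sequences come from GENCODE M21 (GRCm38, which is mm10), and 96.7% of the genes tested had a length. The codon of the Q/R site was located by a search of the translated coding sequence.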

Additional observations from a re-analysis of the deposited data

Results flagged for a closer look

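Of 54 sets of values examined (the levels and shares of the 9 genes in the 3 groups), 2 had 1 mouse farther from the others than Dixon's 95% critical value (0.568 for 7 mice), where chance flags about 1 in 20, or 2.70. Both were the same EtOH mouse, the one with the highest summed FPKM of its group. Its Gria3 value, 51.12 FPKM against 60.25 for the next lowest mouse, gave a gap of 0.585 of the group's range on the log2(FPKM + 0.1) scale that was examined, and its Grik2 value, 13.72 against 16.94, gave 0.619. On the FPKM scale the gaps were 0.551, under the critical value, and 0.579. The length slope of this library was 0.184, the lowest of the EtOH group.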

How the results depend on the processing

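The 9 members stayed above an adjusted p of 0.05 in every alternative and every fit without 1 mouse, so what moved was the sign of small fold changes, in 20 of 324 member values outside the leave-one-out fits. Log2 fold changes in EtOH against Ctrl became -0.03 for Gria3, -0.02 for Gria4 and 0.01 for Grik4 with the length slope as a covariate, 0.01 for Grik1 and 0.01 for Grik4 under upper-quartile scaling, 0.02 for Grik1 with array quality weights, and 0.08 for Grik1 with the choroid plexus score as a covariate. In EtOH-UA against EtOH, Gria1 became -0.01 under upper-quartile scaling and -0.07 under quantile normalization, Grik2 was 0.00 with the length slope, and Gria3 and Grik2 were 0.02 and 0.01 without the 2 EtOH-UA mice of highest summed FPKM, an alternative chosen after seeing the data. In EtOH-UA against Ctrl, array quality weights gave 0.05 for Gria2, 0.02 for Gria3 and 0.04 for Grik2, the length slope gave 0.02 for Grik2, and leaving out those 2 mice gave 0.08 for Gria2, 0.04 for Gria3, 0.07 for Grik2 and 0.05 for Grik3 and moved the median of the 9 members from -0.06 to 0.04. The cause was not tested. Leaving out 1 mouse at a time gave ranges that include a change of sign in EtOH against Ctrl for Gria3 (0.00 to 0.06), Gria4 (-0.05 to 0.09), Grik1 (-0.06 to 0.05), Grik4 (-0.06 to 0.03) and Grik5 (-0.01 to 0.04), in EtOH-UA against EtOH for Gria1 (-0.02 to 0.04) and Grik4 (-0.10 to 0.00), and in EtOH-UA against Ctrl for Gria2 (-0.10 to 0.01), Gria3 (-0.12 to 0.00) and Grik2 (-0.04 to 0.03). Members under an unadjusted p of 0.05 in EtOH-UA against EtOH numbered 0 to 3 in those fits, with 3 only without the EtOH mouse of highest summed FPKM. The share of all genes under 0.05 in that fit is not given, so no result about the members is drawn from it. Over all genes, array quality weights called 1 gene in EtOH against Ctrl (Cd24a), and the leave-one-out fits called 0 to 1 in each of the 3 comparisons (LOC115488002 without 1 Ctrl mouse, and LOC101055676, whose value was 0 in every Ctrl and EtOH mouse, without either of 2 EtOH-UA mice). Correlations moved more: with the length slope removed, an alternative added after seeing the data, 10 of the 36 between members changed sign, and without the mouse of highest summed FPKM 4 did. The levels and shares were recomputed only as group medians and as means without 1 mouse. All 468 such values lay within 1 SD of the group mean, which holds for any data, so this says nothing about how stable they are. No paired analysis was possible because the columns carry no replicate numbers. With 7 to 9 mice per group the 95% intervals of the log2 fold changes reached from -0.57 to 0.41 at their widest. Differences inside a member's own interval remain compatible with these data.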
